A study of Mus musculus with 6 samples.

Results

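The lysosome is acidified by the vacuolar proton pump (V-ATPase), a rotary enzyme in which the cytosolic V1 sector hydrolyses ATP and the membrane V0 sector carries protons into the lumen. The cathepsins are proteases, most of which mature and work at that acid pH, and LAMP1 and LAMP2 are the abundant glycoproteins that line the lysosomal membrane. Many lysosomal genes carry an E-box in their promoter that is bound by TFEB and its relatives TFE3 and MITF. In tumors, the pump and the secreted cathepsins are known for acidifying the tissue and for degrading extracellular matrix. The genes described here were all rows whose symbol begins with Atp6v0 or Atp6v1, is Cts followed by 1 letter, or is Lamp1 or Lamp2. These were 42 of the 22880 genes in the table: 22 proton pump subunits (9 of V0 and 13 of V1), 18 cathepsins and both LAMP genes. The rule reads symbols only.

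The RNA came from MC-38 cells, a mouse colon adenocarcinoma line carrying GFP, that had grown as orthotopic tumors in the cecum wall of C57BL/6J mice and had not been passaged in vivo. Both groups carried the lentiviral vector pLKO.1-puro, as the Mock control or as a stable knockdown of HIF-1α (HIF-1α-KD), the oxygen-regulated transcription factor. Living GFP+ cells that stained for neither CD45 nor CD31 were sorted from the tumors and their polyadenylated RNA was sequenced, giving 3 Mock and 3 HIF-1α-KD libraries. Neither the labels nor the methods say whether a library is 1 tumor or several, or how many clones a line holds, so the p-values measure the spread between these libraries only. The study asked how the knockdown of HIF-1α changes the transcriptome of tumor cells in the tumor, and the comparison given here is that of the lysosomal genes.

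The libraries held 19845852 to 30809139 reads on genes. Hif1a, the targeted gene, was at 6914, 5424 and 4945 normalized counts under Mock against 697.3, 3142 and 1928 under HIF-1α-KD. The groups did not overlap, with a log2 fold change of -1.82 ± 0.46 (SE), an unadjusted p of 0.0036 and an adjusted p of 0.219 (limma). The fold change is HIF-1α-KD minus Mock on log2(normalized count + 1), here and throughout. Markers of the labelled tissue were low: the summed normalized count of 8 colon epithelial markers was between 66.03 and 134.3 in 5 libraries and 590.7 in Mock replicate 3. The sum of 8 fibroblast and pericyte markers ranged from 23390 to 50040. Macrophage markers set HIF-1α-KD replicate 3 apart and are given with the cathepsins.

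Short stretches of promoter are shown first, because the E-box of lysosomal genes (CACGTG) contains the letters of the core to which HIF-1 binds (ACGTG or GCGTG, the hypoxia response element). Promoter windows from RefSeq (GRCm38.p6, 250 bases before to 50 after a start site) were found for 32 of the 42 genes. The palindrome TCACGTGA, the centre of the CLEAR element to which TFEB binds, stood in the windows of 5 of the 20 tested genes that had one, against 1.12% of the 27025 genes with a window. The tested genes with it were Ctsa, Ctsd, Atp6v0d1, Atp6v0e and Atp6v1a. The shorter CACGTG, which every TCACGTGA contains, stood in 8 of the 20, against 8.09% of all genes, and ACGTG or GCGTG on either strand, which every CACGTG also contains, in 14 of the 20, against 46.7%. The windows around TCACGTGA follow, each read 5′ to 3′ on the strand of its gene with the palindrome in capitals.
Ctsa, site at -13 to -6: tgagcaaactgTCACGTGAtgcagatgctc
Ctsa, site at 5 to 12: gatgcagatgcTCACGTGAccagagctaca
Ctsd, site at -99 to -92: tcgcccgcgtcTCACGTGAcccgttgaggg
Atp6v0d1, site at -4 to 4: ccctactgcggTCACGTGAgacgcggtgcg
Atp6v0e, site at 3 to 10: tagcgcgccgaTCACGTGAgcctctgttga
Atp6v1a, site at -132 to -125: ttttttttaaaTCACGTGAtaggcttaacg

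Positions count from the RefSeq start site, whose first base is 1 and which has no 0. The Ctsa windows lie on the plus strand of chromosome 2 at chr2:164833749-164833778 and chr2:164833766-164833795, in an exon by GENCODE M21 (GRCm38). The Ctsd window lies on the minus strand at chr7:142387908-142387937, also in an exon. That of Atp6v0d1 lies at chr8:105566050-105566079 on the minus strand, just before the start that GENCODE gives. That of Atp6v0e lies in an exon at chr17:26676387-26676416 on the plus strand. The Atp6v1a window, at chr16:44139373-44139402 on the minus strand, falls in an intron of transcripts that GENCODE starts further upstream. Lamp1 held no TCACGTGA but 4 copies of CACGTG, capitals below, within the 70 bases before its start at chr8:13159091-13159160 (plus strand, no exon).
Lamp1, 70 bases before the start: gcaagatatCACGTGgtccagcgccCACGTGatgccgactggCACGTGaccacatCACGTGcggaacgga

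These matches describe letters in a window and not binding.

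No difference between the groups was called for any of the lysosomal genes, which spanned the range from the most abundant transcripts to genes without a read. After a filter on low counts, 27 of the 42 genes were tested (7 V0 subunits, 9 V1 subunits, 9 cathepsins and both LAMP genes) among 12014 genes. By limma, 0 of the 27 had an adjusted p under 0.05, where 0.391% of all tested genes did. The count was also 0 by edgeR, which called 0.391% of all genes, and 0 by DESeq2, which called 2.36%. At an unadjusted p under 0.05 the count was 0 by all 3 tools, where limma gave 7.04% of all genes as higher and 5.69% as lower in HIF-1α-KD. An exact permutation test of 1 gene could not go below p = 0.1 with 3 libraries against 3.

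The median log2 fold change was -0.02 over the 16 tested pump subunits, with 7 above 0 and 9 below and a range from -0.40 to 0.69. Over the 9 tested cathepsins it was 0.07, with 5 above 0 and 4 below and a range from -0.25 to 0.51. Lamp1 and Lamp2 were both below 0. The median of all 12014 genes was 0.02, and their quartiles lay at -0.19 and 0.24. The 95% interval of the fold change lay within 1.5-fold in either direction for 11 pump subunits, 5 cathepsins and 1 LAMP gene, so for these a larger difference was outside the interval. It was wider for Atp6v0c, Atp6v0a2, Atp6v0a4, Atp6v1a, Atp6v1g2, Ctsz, Ctss, Ctsc, Ctso and Lamp2. Exons of Lamp1, Ctsa, Ctsb, Ctsl, Ctsz, Atp6v0a2, Atp6v0a4, Atp6v0b, Atp6v1e1, Atp6v1g2 and Atp6v1h overlap genes on the opposite strand, and those of Ctsd, Ctsl and Atp6v0a4 a gene on the same strand. The kit was stranded but the strand setting of the count is not stated, so reads there may be shared with the other gene.

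**Figure D1:**
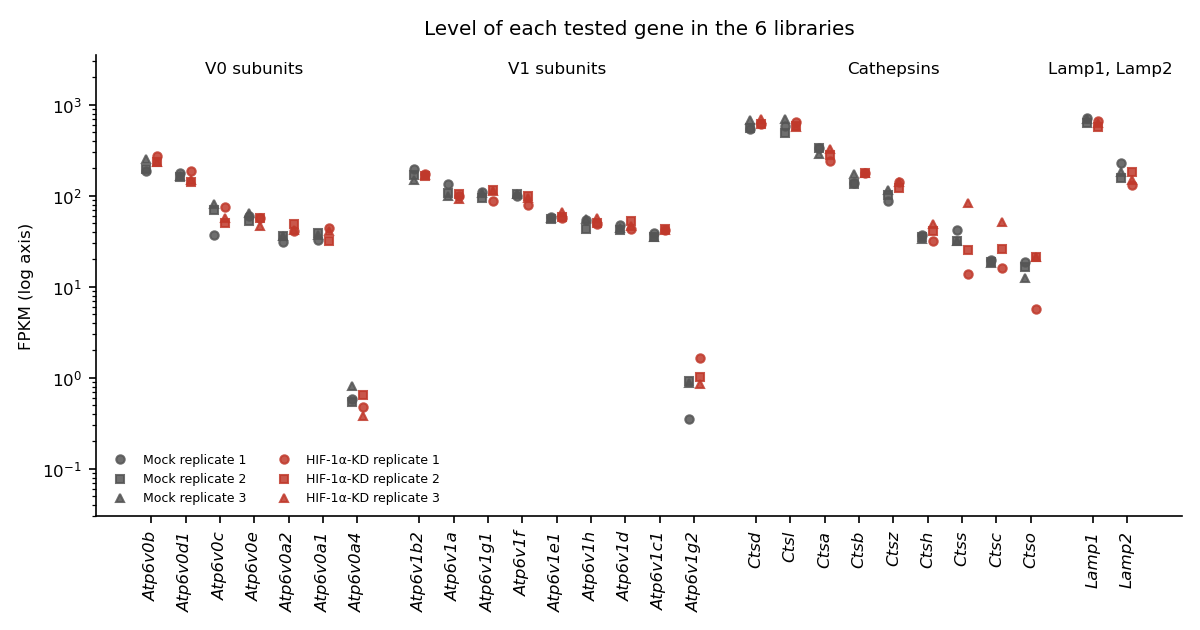
Level of each of the 27 tested genes in the 6 libraries, as FPKM on a log axis, grouped by role. Each point is 1 library, grey for Mock and, beside it, red for HIF-1α-KD. The 2 colours lie at similar heights for most genes, with Ctss, Ctsc and Ctso spread over the HIF-1α-KD libraries.

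Summed over its genes, the pump held 1257 ± 42.5 FPKM in Mock and 1277 ± 33.7 in HIF-1α-KD (SD, n = 3 each). The V0 sector held 574.8 ± 57.1 and 608.1 ± 63.7 FPKM, and the V1 sector 681.7 ± 48.9 and 668.7 ± 30.1. The pump as a whole took 0.156% to 0.168% of the reads of a library. Its summed level thus varied little from library to library, and the groups lay within the spread of their replicates. The cathepsins together held 1856 ± 170 FPKM in Mock and 1971 ± 136 in HIF-1α-KD, and Lamp1 with Lamp2 874.7 ± 78.6 and 776.0 ± 18.6.

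The most abundant V0 gene was Atp6v0b (chr4:117884326-117887333), which encodes the c″ subunit of the proton-carrying ring, with a mean of 232 FPKM. Its normalized counts were 3496, 3406 and 4652 (Mock) against 4926, 4018 and 4041 (HIF-1α-KD). The groups overlapped, and the log2 fold change was 0.18 (95% interval -0.20 to 0.56). Atp6v0d1 (chr8:105524465-105566047) encodes the subunit d that couples the ring to the central stalk, and had a mean of 164 FPKM. It had normalized counts of 4801, 4144 and 4449 (Mock) against 4883, 3608 and 3740 (HIF-1α-KD), the highest and the lowest library both in the knockdown group. Its log2 fold change was -0.14 ± 0.16 (SE). Atp6v0c, the c subunit that makes up most of the ring, ranged widely within the Mock group, from 960.2 to 2103, and had a log2 fold change of -0.02 ± 0.29 (SE). Reads of this gene and of its processed pseudogenes Atp6v0c-ps1 and Atp6v0c-ps2 may be shared, so its level is uncertain. Atp6v0e, the small subunit e, was at 2775, 2270 and 3007 (Mock) against 2548, 2463 and 2004 (HIF-1α-KD), again with overlap and a log2 fold change of -0.20 ± 0.16 (SE).

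Subunit a fixes the membrane to which a pump is sent, and its isoforms are encoded by separate genes. Atp6v0a2, best known from the Golgi and endosomes, was the only tested pump gene whose HIF-1α-KD libraries all lay above the Mock libraries. Its normalized counts were 1595, 1724 and 1837 (Mock) against 2028, 2309 and 2011 (HIF-1α-KD). Of all tested genes, 10.4% showed such a separation upwards, and the log2 fold change of Atp6v0a2 was 0.30 (95% interval -0.01 to 0.61, unadjusted p = 0.059, adjusted p = 0.409, limma). Atp6v0a1, the isoform that is abundant in neurons, was at 1803, 2044 and 2056 (Mock) against 2344, 1644 and 2127 (HIF-1α-KD), with overlap. Its log2 fold change was 0.04 ± 0.17 (SE). In HIF-1α-KD replicate 2, the library with the highest Atp6v0a2 and the lowest Atp6v0a1, Atp6v0a2 made up 59.9% of the FPKM of these 3 isoforms. In the other 5 libraries it made up 47.4% to 50.4%. Atp6v0a4, the isoform of kidney intercalated cells, had 11 to 24 reads a library and made up 0.45% to 1.08% of that sum. Its normalized counts were 20.93, 18.18 and 28.99 (Mock) against 16.89, 21.58 and 12.71 (HIF-1α-KD), with overlap. Atp6v0a4 had a log2 fold change of -0.40 ± 0.44 (SE), and -0.57 to -0.21 with 1 library left out. The isoform of lysosomes and osteoclasts, Tcirg1, has a symbol outside the rule and was added after its values were seen. Its mean was 58.5 FPKM, above the 39.3 of Atp6v0a2 and the 37.7 of Atp6v0a1, and its log2 fold change was 0.11 (adjusted p = 0.861, limma).

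Among the V1 genes, Atp6v1b2 (chr8:69088646-69113711) and Atp6v1a (chr16:44085402-44139705) encode the alternating B and A subunits of the catalytic head. Atp6v1b2 was the most abundant, with a mean of 171 FPKM and normalized counts of 6558, 5340 and 5024 (Mock) against 5650, 5169 and 5225 (HIF-1α-KD). The groups overlapped, with a log2 fold change of -0.07 ± 0.15 (SE). Atp6v1a had a mean of 106 FPKM, with normalized counts of 7586, 5646 and 5590 (Mock) against 5445, 5437 and 4830 (HIF-1α-KD). All its HIF-1α-KD libraries lay below the Mock libraries, as did those of 8.75% of all tested genes, but its closest libraries were far nearer to each other than Mock replicate 1 was to the other Mock libraries. The log2 fold change of Atp6v1a was -0.25 (95% interval -0.61 to 0.11, adjusted p = 0.554, limma).

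Atp6v1f, which encodes a stalk subunit, was the other pump gene with no overlap downwards. It had normalized counts of 1736, 1706 and 1855 (Mock) against 1343, 1613 and 1544 (HIF-1α-KD). Its log2 fold change was -0.24 (95% interval -0.56 to 0.08, adjusted p = 0.522, limma). In all, 1 of the 16 tested pump genes separated upwards and 2 downwards, where 10.4% and 8.75% of all tested genes did. Atp6v1a, Atp6v1f and Atp6v0c were singled out after their values were seen.

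The peripheral stalk subunit G was carried by Atp6v1g1, with a mean of 105 FPKM and normalized counts of 3198, 2581 and 3100 (Mock) against 2492, 3127 and 3080 (HIF-1α-KD). Its log2 fold change was -0.03 ± 0.15 (SE). Atp6v1g2, the isoform known from brain, had the largest fold change of any pump gene, 0.69, and one of the least certain, with a 95% interval from -0.46 to 1.83. It rested on 8, 25 and 20 Mock reads against 55, 22 and 19 (HIF-1α-KD), with normalized counts of 9.848, 23.92 and 24.16 (Mock) against 44.24, 26.38 and 21.95 (HIF-1α-KD). The groups overlapped, since HIF-1α-KD replicate 3 lay inside the Mock range. Atp6v1g2 had a log2 fold change of 0.29 without Mock replicate 1 and 0.40 without HIF-1α-KD replicate 1. Atp6v1c1, which encodes the subunit C that holds V1 to V0, was at 2085, 1773 and 1876 (Mock) against 2197, 2137 and 2077 (HIF-1α-KD), where 1 Mock library reached into the knockdown range. Atp6v1c1 had a log2 fold change of 0.16 (95% interval -0.14 to 0.47). Atp6v1e1, the other subunit of the peripheral stalk, was at 1823, 1604 and 1756 (Mock) against 1703, 1662 and 1907 (HIF-1α-KD), with a log2 fold change of 0.02 ± 0.14 (SE). The remaining tested V1 genes, Atp6v1d and Atp6v1h, had log2 fold changes of 0.03 and -0.02.

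**Figure D2:**
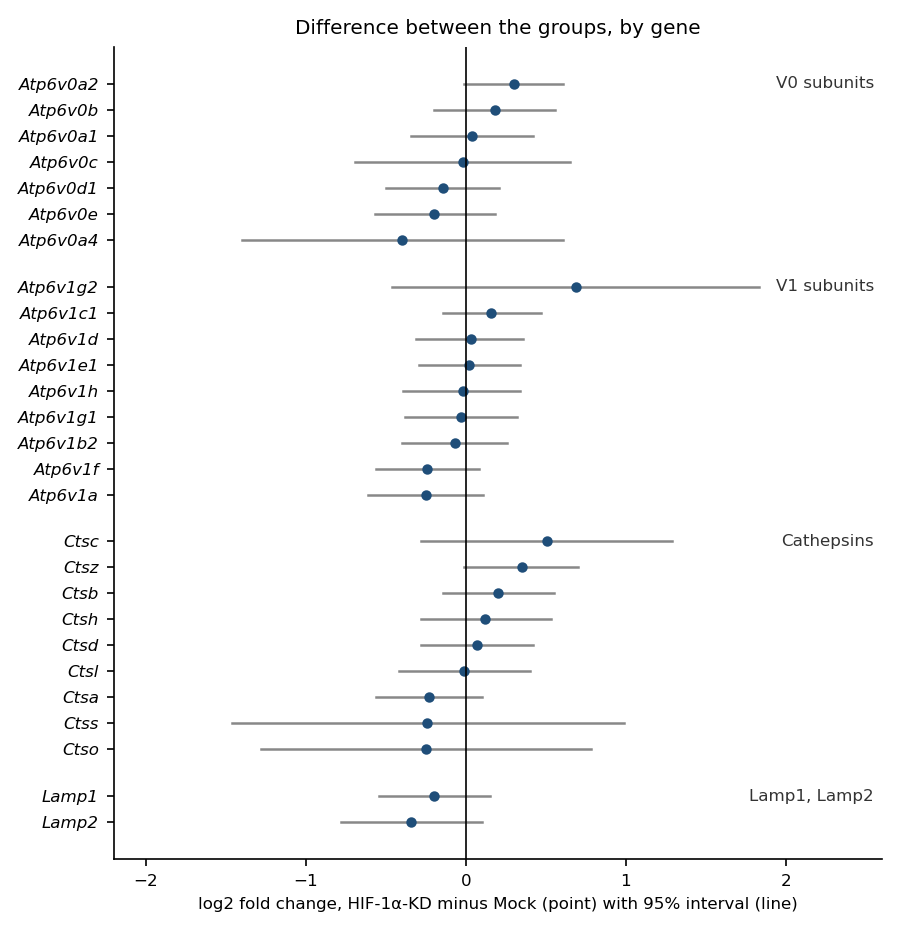
Log2 fold change of each tested gene (point), HIF-1α-KD minus Mock on log2(normalized count + 1), with its 95% interval (line), from limma over 3 libraries in each group. All 27 intervals include 0, and the widest are those of Atp6v0a4, Atp6v1g2, Ctss and Ctso.

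Where a subunit has a widely used and a tissue-restricted gene, the widely used one made up almost all of it in both groups. Atp6v1g1 made up 98.2% to 99.7% of the FPKM of subunit G, and Atp6v0d1 at least 99.8% of that of subunit d. Atp6v0d2, the osteoclast form of subunit d, had 9, 5 and 2 reads (Mock) against 4, 1 and 6 (HIF-1α-KD). Beside Atp6v0e, Atp6v0e2 had 0, 3 and 0 reads against 0, 1 and 1. Atp6v1b1, the form of subunit B in kidney and inner ear, had 1, 3 and 4 reads against 0, 2 and 3. Atp6v1c2, Atp6v1e2 and Atp6v1g3 had 0 reads in all 6 libraries. None of these 6 genes passed the filter, and a difference in them was not detectable at this depth.

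Among the cathepsins, Ctsd and Ctsl were the most abundant, at means of 618 and 594 FPKM and at ranks 174 and 179 of the 12014 tested genes. Ctsd (chr7:142375911-142388038) encodes the aspartic protease cathepsin D. Its normalized counts were 18930, 18040 and 23670 (Mock) against 20800, 19850 and 22620 (HIF-1α-KD), with the highest and the lowest both in Mock. The log2 fold change of Ctsd was 0.07 (95% interval -0.28 to 0.42). Ctsl (chr13:64359337-64370890), the cysteine protease cathepsin L, was at 29270, 23140 and 34840 (Mock) against 31360, 27470 and 26790 (HIF-1α-KD), all of the latter inside the Mock range. Ctsl had a log2 fold change of -0.01 (95% interval -0.42 to 0.40).

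Ctsa (chr2:164832873-164841032) encodes a carboxypeptidase that protects β-galactosidase and neuraminidase in the lysosome, and came next with a mean of 302 FPKM. It was at 9266, 8875 and 7978 (Mock) against 6551, 7357 and 8467 (HIF-1α-KD), so that only HIF-1α-KD replicate 3 reached the Mock range. The log2 fold change was -0.23 (95% interval -0.56 to 0.10, adjusted p = 0.554, limma). Ctsb, the cysteine protease cathepsin B, was singled out after its values were seen. Its normalized counts were 16720, 15520 and 20940 (Mock) against 20740, 20040 and 20020 (HIF-1α-KD), tight in the knockdown group with 1 Mock library above them. Ctsb had a log2 fold change of 0.20 ± 0.15 (SE). Cathepsins B, D and L together made up 68.2% to 76.0% of the FPKM of all 18 cathepsins.

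Ctsz had the smallest unadjusted p of the cathepsins. It encodes the carboxypeptidase cathepsin Z and was at 3222, 3575 and 4308 (Mock) against 5091, 4179 and 4825 (HIF-1α-KD). Mock replicate 3 lay above 1 HIF-1α-KD library, and the groups therefore overlapped. The log2 fold change was 0.35 (95% interval -0.01 to 0.70, unadjusted p = 0.0531, adjusted p = 0.397, limma). No tested cathepsin separated the groups in either direction, where 10.4% of all tested genes did so upwards and 8.75% downwards.

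Ctsc, Ctss and Ctso had the widest spread of the cathepsins, and it lay within the HIF-1α-KD group. Ctsc (chr7:88278085-88310888), the dipeptidyl peptidase that activates the serine proteases of immune granules, was at 791.6, 711.0 and 734.4 (Mock) against 633.0, 976.0 and 1914 (HIF-1α-KD). It had the largest fold change of any cathepsin, 0.51 on the log2 scale (95% interval -0.28 to 1.29, adjusted p = 0.580, limma). HIF-1α-KD replicate 1 was nevertheless below every Mock library and replicate 3 far above them. Ctss (chr3:95526786-95556403), the protease of antigen-presenting cells that degrades the invariant chain, was singled out after its values were seen. It was at 1471, 1034 and 1110 (Mock) against 463.3, 813.0 and 2725 (HIF-1α-KD), where 2 libraries lay below the Mock range and 1 above. Ctss had a log2 fold change of -0.24 (95% interval -1.46 to 0.99). By edgeR it was 0.13 and by DESeq2 0.14, of the opposite sign. Ctso, also named after its values were seen, was at 725.1, 589.5 and 477.1 (Mock) against 213.9, 751.8 and 755.4 (HIF-1α-KD), so that replicate 1 alone was low. Its log2 fold change was -0.25 (95% interval -1.28 to 0.78).

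Markers of macrophages, cells in which cathepsins S and C are abundant, were highest in HIF-1α-KD replicate 3, as were Ctss and Ctsc, although the sort took cells without CD45. The summed normalized count of 14 macrophage markers was 6356, 6663 and 6886 (Mock) against 3927, 4232 and 19580 (HIF-1α-KD). All 14 were highest in HIF-1α-KD replicate 3, and 10 of 14 were lower in both other knockdown libraries than in any Mock library. None was at 0 in all libraries. The sum of 6 leukocyte markers was 1289, 1310 and 2649 (Mock) against 1326, 6231 and 5737 (HIF-1α-KD), so it was high in replicate 2 as well as replicate 3. Of these 6 markers, 5 were highest in HIF-1α-KD replicate 3. In the other libraries Ctss, like the macrophage marker sum, was below the Mock range in HIF-1α-KD replicates 1 and 2. Ctsc in HIF-1α-KD replicate 2, at 976.0, was above every Mock library, and Ctso was nearly equal in replicates 2 and 3. The ratio of HIF-1α-KD replicate 3 to the mean of replicates 1 and 2 had a median of 4.98 over the 14 markers, with a range from 1.72 to 6.47. For Ctss the same ratio was 4.27, for Ctsc 2.38, for Ctso 1.56 and for Ctsh, the aminopeptidase cathepsin H, 1.31, a gene singled out after its values were seen. For the other 5 tested cathepsins it lay between 0.911 for Ctsl and 1.22 for Ctsa, and for Lamp1 it was 1.00. The part of macrophage RNA in the levels of these genes was not tested, and in sorted bulk RNA more cells of a type and more RNA per cell cannot be told apart.

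Without HIF-1α-KD replicate 3, the log2 fold change of Ctss was -0.95 (unadjusted p = 0.00834, adjusted p = 0.264, limma) and that of Ctsc 0.08 (adjusted p = 0.922). Ctss was then the only one of the 27 genes with an unadjusted p under 0.05, where 11.5% of all tested genes passed in that fit. Ctsh had a log2 fold change of 0.12 with all libraries and -0.01 without that library. The medians without it were -0.04 for the pump and 0.02 for the cathepsins. HIF-1α-KD replicate 1 bore on the cathepsins too: without it their median was 0.27, against 0.03 over all genes, the log2 fold change of Ctso was 0.36, and Ctsc had an unadjusted p under 0.05, as did 11.7% of all tested genes in that fit.

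**Figure D3:**
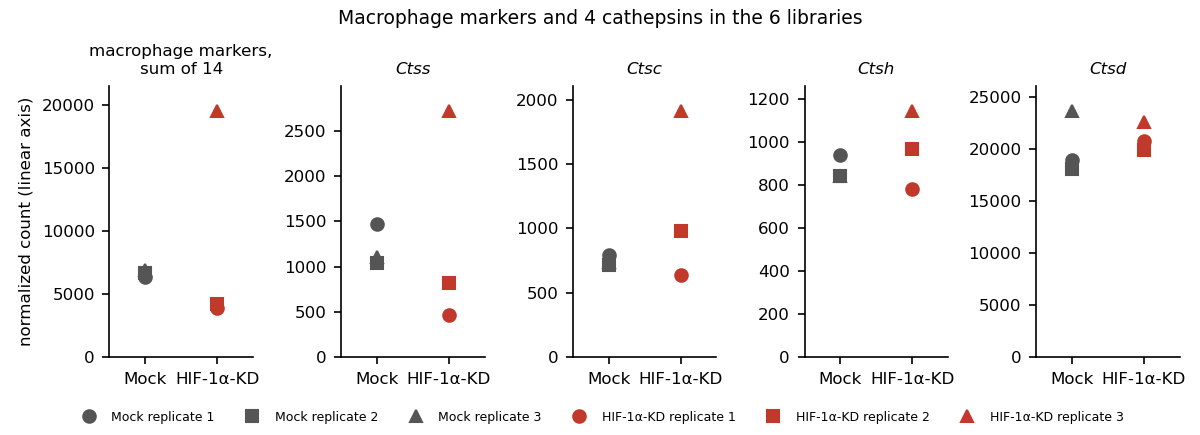
Normalized count in each library of the 14 macrophage markers summed and of Ctss, Ctsc, Ctsh and Ctsd, on linear axes that start at 0. Grey points are Mock and red points HIF-1α-KD libraries, with HIF-1α-KD replicate 3 as the red triangle, which is far above the others for the markers (19580), Ctss (2725) and Ctsc (1914) but not for Ctsd (22620).

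The remaining cathepsins were at or near 0. Ctsk, the collagenase of osteoclasts, had 40 reads in Mock replicate 1 and 2 to 10 in the other libraries. Ctsw, known from natural killer and cytotoxic T cells, had 1 to 7 reads, Ctsf 0 to 4 and Ctse 0 to 2. Ctsg, the serine protease of neutrophil granules, had 0 reads in all libraries, as did Ctsj, Ctsq, Ctsr and Ctsm, which are known from the rodent placenta.

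Lamp1 (chr8:13159161-13175338), with the E-boxes shown above, was the most abundant gene of the set, at a mean of 652 FPKM and rank 166 of the tested genes. Its normalized counts were 41740, 34590 and 40140 (Mock) against 36800, 30790 and 33890 (HIF-1α-KD). The groups overlapped through Mock replicate 2, and the log2 fold change was -0.20 (95% interval -0.54 to 0.15, adjusted p = 0.622, limma). Lamp2 (chrX:38401357-38456454) was at 15500, 9844 and 12180 (Mock) against 8576, 11330 and 9361 (HIF-1α-KD), with a mean of 173 FPKM. Its log2 fold change was -0.34 (95% interval -0.78 to 0.10, adjusted p = 0.501, limma), and it was -0.18 without Mock replicate 1 and -0.50 without Mock replicate 2.

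The 5 tested genes with TCACGTGA in their window did not share a direction. Ctsd was above 0, and Ctsa, Atp6v0d1, Atp6v0e and Atp6v1a were below, between -0.25 and 0.07 on the log2 scale. All 5 intervals included 0.

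Genes with which the pump and the cathepsins work were counted over 6 lists. Of the 93 tested genes in these lists, 0 had an adjusted p under 0.05 by limma, 0 by edgeR and 1 by DESeq2. The shares of all tested genes were 0.391%, 0.391% and 2.36%. At an unadjusted p under 0.05 there were 7 by limma, 13 by edgeR and 9 by DESeq2, where 12.7%, 12.4% and 13.0% of all tested genes passed. The lists were thus near or below the background by each tool. Of 14 genes for assembly and accessory subunits of the pump, 4 were above 0 and 10 below, with a median log2 fold change of -0.16. At an unadjusted p under 0.05 there were 2, both lower, where 5.69% of all tested genes were lower. Dmxl1, a subunit of the RAVE complex that joins V1 to V0, was at 5555, 5281 and 2124 (Mock) against 2259, 2427 and 1640 (HIF-1α-KD), with 2 Mock libraries far above the rest. Dmxl1 had a log2 fold change of -0.93 (adjusted p = 0.34 by limma, 0.283 by edgeR and 0.041 by DESeq2). Vma21, a chaperone of V0 assembly, was at -0.43, and Atp6ap2, an accessory subunit, at -0.22.

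Of 36 lysosomal hydrolases and activators, 9 were above 0 and 27 below, with a median of -0.09. By limma there were 2 with an unadjusted p under 0.05, both lower, a share near the 5.69% of all genes. Gla, the α-galactosidase, was one of them, at -0.36. Lipa, the acid lipase, was at 0.56, with normalized counts of 5005, 4317 and 5467 (Mock) against 10300, 7347 and 4992 (HIF-1α-KD). Its unadjusted p was 0.0501 by limma, 0.0409 by edgeR and 0.0183 by DESeq2. In this list 6 genes were under 0.05 by edgeR and 4 by DESeq2, where 12.4% and 13.0% of all tested genes passed. Of 16 tested lysosomal membrane proteins, 4 were above 0 and 12 below, with a median of -0.18. Tmem55b, which acts in lysosome positioning, was the 1 of 16 with an unadjusted p under 0.05 by limma, also near the 5.69% of all genes, at -0.35. It was followed by Tmem192 at -0.35 and Scarb2, the receptor that carries glucocerebrosidase, at -0.24. By edgeR, Tmem192 was also under 0.05 (unadjusted p = 0.0395).

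In the list of enzyme sorting, 8 of 9 genes were above 0, as were 52.7% of all tested genes, and the median was 0.20, with no adjusted p under 0.05. Igf2r, the large mannose 6-phosphate receptor that brings hydrolases to the lysosome, was at 3325, 4897 and 5780 (Mock) against 6236, 7216 and 6993 (HIF-1α-KD), without overlap. In all, 3 of the 9 genes separated upwards in this way, as did 10.4% of all tested genes. Igf2r had a log2 fold change of 0.58 ± 0.20 (SE), with an unadjusted p of 0.0199 and an adjusted p of 0.321 (limma), the 1 of 9 genes of the list under 0.05 where 7.04% of all genes were so and higher. Nagpa, which uncovers the mannose 6-phosphate tag, was at 0.44 and the adaptor Gga2 at 0.33. Of 5 tested cathepsin inhibitors, all were below 0, with a median of -0.27. Ctla2a, an inhibitor related to the propeptide of cathepsin L, was at 83.71, 29.67 and 27.78 (Mock) against 0.8043, 1.199 and 18.48 (HIF-1α-KD), a log2 fold change of -3.31 ± 0.94 (SE) on few reads, whose size depends on the added count of 1 (unadjusted p = 0.00696, adjusted p = 0.258, limma). Cst3, the abundant cystatin C, was at -0.27, and Ctla2b at -0.81, which became -1.62 (unadjusted p = 0.0246, limma) without HIF-1α-KD replicate 3. Of 13 tested TFE factors and regulators, 4 were above 0 and 9 below, with a median of -0.09. None had an unadjusted p under 0.05 by limma or DESeq2. By edgeR 1 did, Rraga (unadjusted p = 0.0478), where 12.4% of all tested genes passed. The smallest p values by limma there were those of Rraga at -0.34, Lamtor3 at 0.27 and Rragc at -0.31, all parts of the nutrient-sensing complex on the lysosome.

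Several of these calls changed when 1 library was left out. An unadjusted p under 0.05 by limma remained for Ctla2a with any 1 of the 6 libraries left out, for Igf2r in 5 of the 6 fits, for Dmxl1 in 3, for Vma21 in 1 and for Gla and Tmem55b in 0. The log2 fold change then ranged from -4.40 to -2.69 for Ctla2a, from 0.35 to 0.75 for Igf2r, where Mock replicate 1 gave the lowest value when absent, and from -1.38 to -0.69 for Dmxl1. Igf2r lost the call without HIF-1α-KD replicate 2 (unadjusted p = 0.0596, limma). Dmxl1 lost it without Mock replicate 1, without Mock replicate 2 and without HIF-1α-KD replicate 3, and Vma21 kept it only without Mock replicate 2. Lipa gained it without HIF-1α-KD replicate 3, at 0.83 (unadjusted p = 0.00338, limma), and was at 0.30 without HIF-1α-KD replicate 1. Nagpa, Tmem192, Rraga, Lamtor3, Rragc and Ctla2b also had an unadjusted p under 0.05 in 1 of the 6 fits each. That includes all 3 genes named from the TFE list. In a single fit, 8.43% to 12.9% of all tested genes passed. The genes followed here were those of smallest p in their lists, so these passes do not describe the lists.

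**Figure D4:**
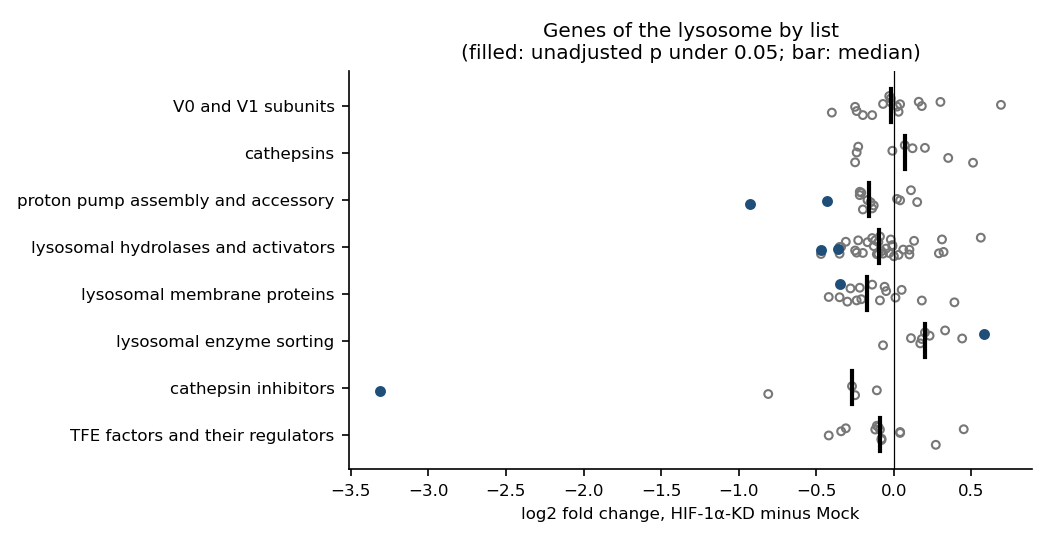
Log2 fold change of each tested gene of the pump, of the cathepsins and of the 6 lists, HIF-1α-KD minus Mock, with the median of each list as a black bar. Filled points have an unadjusted p under 0.05 by limma: none among the pump subunits and cathepsins, and 7 in the lists, of which Igf2r alone is above 0 and Ctla2a is the lowest at -3.31.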

How the data were processed

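Polyadenylated RNA of 3 Mock and 3 HIF-1α-KD libraries was sequenced single-end. According to the methods, the authors trimmed reads, aligned them with STAR and counted them per gene with featureCounts. The methods name GRCh38, while the submitters' processing notes name GRCm38, STAR and edgeR, and the deposited identifiers are mouse Ensembl genes. The authors deposited normalized counts, a signal per gene in which each library's reads are divided by 1 factor, and FPKM, which the authors scaled by gene length and by reads on genes. Columns with the authors' own log2 ratio, p-value and false discovery rate hold their comparison and were not used.

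Whole reads were recovered from the steps of the low normalized counts: 100% of values up to 300 reads came out whole within 0.1 read. Genes passing filterByExpr of edgeR 4.0.16 (minimum count 10) on those reads, 12014 in all, were tested with limma 3.58.1 (mean-variance trend, two-sided, Benjamini-Hochberg over all of them) on log2(normalized count + 1). The unit called for this test in place of the study's DESeq2. Fold changes on that scale understate changes of low genes. edgeR's quasi-likelihood test (47 genes at an adjusted p under 0.05) and DESeq2 1.42.0 (283 genes) on the recovered reads, other scalings, filters and pseudocounts, a replicate block and leaving out each library were alternatives. All 3 tools were tested on simulated data first. The labels give no batch. Values were computed with R 4.3.3 and pandas 2.3.3. FPKM served to compare levels between genes.

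The members and lists were chosen with earlier results of these data known. Values in every library are given for Lamp1, Lamp2, the 3 pump genes and 3 cathepsins of largest mean FPKM, the 2 of each with the largest fold change, alternative isoforms (those without a read aside), and, of each list, the 3 genes of smallest p are named. A gene of the hydrolase list that this rule names is not reported here. The remaining members are given by range and count, and other genes are said to be singled out after their values were seen. Of the marker lists fixed for other cells, the summed normalized counts ranged over the 6 libraries from 1289 to 6231 for leukocytes, 13.67 to 92.41 for granulocytes and mast cells, 130.6 to 330.2 for lymphocytes and natural killer cells, 322.2 to 624.5 for endothelium and 132.9 to 299.6 for osteoclasts.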

Additional observations from a re-analysis of the deposited data

How the results depend on the processing

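No pump subunit or cathepsin had an adjusted p under 0.05 under any of the 15 alternatives. At an unadjusted p under 0.05, scaling by library size gave 1 pump subunit (Atp6v0a2) and 1 cathepsin (Ctsz), where 13.4% of all tested genes passed, and leaving out single libraries gave 0 pump subunits and 0 to 1 cathepsins: Ctsz without Mock replicate 3, Ctsc without HIF-1α-KD replicate 1, and Ctss, lower, without HIF-1α-KD replicate 3, where 8.43% to 12.9% of all tested genes passed. The pump median ranged from -0.08 to 0.04 and the cathepsin median from -0.01 to 0.27 when a library was left out, the highest without HIF-1α-KD replicate 1. With library size scaling, 10 pump subunits were above 0 and 6 below, with a median of 0.03 against 0.08 over all genes, and 6 cathepsins above and 3 below. The sign changed by that scaling for Atp6v0c (0.04), Atp6v1g1 (0.03), Atp6v1h (0.03) and Ctsl (0.05), which were close to 0, and for Ctss, at -0.24, by edgeR (0.13) and DESeq2 (0.14). With 1 library left out, the log2 fold change spanned -0.07 to 0.18 for Atp6v0a1, -0.34 to 0.22 for Atp6v0c, -0.15 to 0.05 for Atp6v1b2, -0.05 to 0.09 for Atp6v1d, -0.04 to 0.06 for Atp6v1e1, -0.13 to 0.07 for Atp6v1g1, -0.17 to 0.05 for Atp6v1h, -0.01 to 0.19 for Ctsd, -0.01 to 0.27 for Ctsh, -0.17 to 0.13 for Ctsl, -0.55 to 0.36 for Ctso and -0.95 to 0.32 for Ctss. Without a change of sign it spanned -0.28 to -0.13 for Lamp1, -0.50 to -0.18 for Lamp2, 0.29 to 0.89 for Atp6v1g2, -0.32 to -0.10 for Atp6v1a, 0.23 to 0.35 for Atp6v0a2, 0.08 to 0.87 for Ctsc and 0.25 to 0.46 for Ctsz. The cause was not tested. Over all genes, the count at an adjusted p under 0.05 was 47, and it was 283 by DESeq2, 1 without the variance trend and 0 to 37 with a library left out. Libraries with the same replicate number did not deviate together (correlations of -0.139, -0.123 and 0.0228), so the numbers were not read as pairs, and a replicate block gave 0 pump subunits and 0 cathepsins, medians of -0.02 and 0.07, and 0 of all genes. Atp6v0a4 and Atp6v1g2 rest on 8 to 55 reads a library, which limits them to large differences.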
